A study of Mus musculus with 6 samples.

Results

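The genes described here repair crosslinked and broken DNA: 36 listed genes of the Fanconi anemia pathway, of homologous recombination, of non-homologous end joining and of the damage checkpoint. They were measured in LKS+ cells of the mouse, the marrow cells without mature-lineage markers but with high c-Kit and Sca-1, a population that holds the stem cells and multipotent progenitors of blood. Of the 36 genes, 34 had at least 1 probe set annotated to that gene alone, out of 18193 genes so measured, and Xrcc2 and Rbbp8 were not analysed here. The brightest probe set by its mean over all arrays stood for each gene. The 6 Affymetrix mouse genome arrays came from 3 wild-type (WT) and 3 Apcmin mice, and genotype is the only difference the labels give. The Min allele truncates Apc, a scaffold of the complex that marks beta-catenin for destruction. The labels name no strain, age, sex, treatment or cage, and each array was treated as 1 mouse because the labels count at least 20000 sorted cells per mouse. By its title the series studies Apcmin mice for disease of the MPD and MDS kind and for changed stem cell function, and the comparison of the genotypes asks whether transcripts of the repair genes differ in these cells.

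The Fanconi pathway removes crosslinks that join the strands of DNA. A core complex of Fanconi proteins attaches ubiquitin to the pair Fancd2 and Fanci, nucleases then cut around the lesion, and the resulting break is repaired by homologous recombination with the BRCA proteins and their partners. End joining through the Ku proteins ligates breaks without a template, and the kinases Atm and Atr signal damage to the effector kinases Chek1 and Chek2. Inherited loss of the Fanconi pathway causes marrow failure and a high risk of myelodysplasia and leukemia, and blood stem cells are among the cells that depend on it most.

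No member differed between WT and Apcmin past the threshold. In limma, with Benjamini-Hochberg adjustment over all 45037 probe sets, 0 of the 34 members had an adjusted p under 0.05, against 0 probe sets in all (0.00%), and the smallest adjusted p of a member was 0.954. At an unadjusted p under 0.05 there was 1 member, Atr, where 3.11% of all genes were under that value and 1.22% were under it with a higher mean in Apcmin. The mean was higher in Apcmin for 21 members (61.8%) and lower for 13, where it was higher for 43.0% of all genes. The median of the 34 log2 differences, Apcmin minus WT, was 0.13, beside -0.04 over all 18193 genes and 0.02 over the 8658 genes whose log2 intensity averaged 6 or more, a level that 27 of the 34 members reached. The median of those 27 members was 0.14, and 63.0% of them were higher, beside 56.3% of the 8658 genes. The members were chosen with earlier results of these data known, so these counts and medians are descriptions only. The median over all 34 members moved most with 1 WT array. Without WT replicate 1 the median over the members was 0.04, beside -0.02 over all genes and 0.01 over the genes of at least 6. Then 22 members (64.7%) were higher, beside 44.8% of all genes and 52.8% of those of at least 6. Without any 1 of the other arrays the median of the 34 lay between 0.09 and 0.16.

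The 3 members whose Apcmin values all lay above all WT values were Atr, Chek2 and Prkdc, 3 of 34, where 2.97% of all genes were separated in that direction and 4.16% of genes with a mean of at least 6. No member was separated the other way, while 7.73% of all genes and 7.63% of those with a mean of at least 6 were separated in either direction. All 3 are kinases of the damage response, while the groups overlapped for Atm and Chek1, the other kinases among the members. Atr and the DNA-dependent kinase catalytic subunit Prkdc are related kinases recruited to damaged DNA, and Chek2 is an effector kinase of the checkpoint. Their adjusted p was 0.954 for each. Without WT replicate 1 these 3 and Xrcc5 were separated, where 5.73% of all genes then were, and 13.7% in either direction. In either direction 8 members (23.5%) were separated without WT replicate 2, beside 15.0% of all genes, and 11 (32.4%) without WT replicate 3, beside 32.7% of all genes. Without Apcmin replicates 1, 2 and 3 there were 5, 4 and 5 such members, beside 14.2%, 17.1% and 16.9% of all genes. Of the separated members, 6 of 8 and 9 of 11 were higher without WT replicates 2 and 3. Without Apcmin replicates 1, 2 and 3 they were 5 of 5, 4 of 4 and 4 of 5. Shares of all genes by direction were not computed for these 5 arrays. The counts were tried after the data were seen and were not tested.

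**Figure D1:**
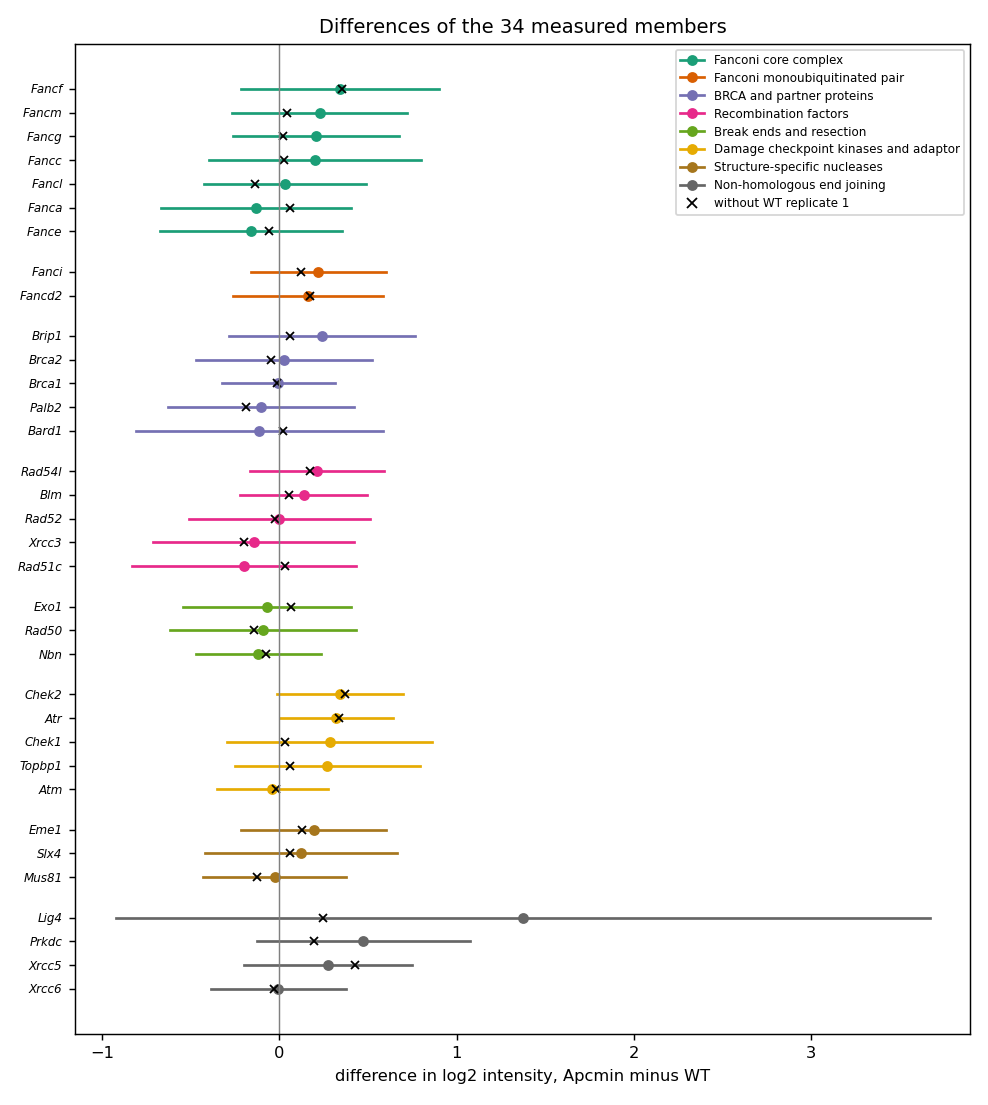
Difference in log2 intensity, Apcmin minus WT, of the 34 measured members in blocks by role. Points are the differences with all 6 arrays, lines their 95% confidence intervals from limma, and crosses the differences without WT replicate 1. The interval includes 0 for 33 members, and the point of Lig4 has by far the widest interval.

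Kit, the gene of the gate's c-Kit, had a mean log2 intensity of 9.79 in WT and 9.87 in Apcmin, and the gene of Sca-1 was not analysed here. A mean of 6 was reached by all 5 measured genes listed for LKS+ cells, by 8 of 10 granulocyte and monocyte, 4 of 5 megakaryocyte, 3 of 5 red cell, 1 of 4 B cell and 0 of 5 T cell markers. The mean was lower in Apcmin for 4 of 4 B cell, 4 of 5 T cell, 8 of 10 granulocyte and monocyte, 4 of 5 megakaryocyte and 2 of 5 red cell markers. Of all 18193 genes 10374 were lower, and only 2945 of the 9535 genes with a mean under 6 were higher. All 5 LKS+ genes were higher, and 2 of 5 without WT replicate 1. The T cell markers summed to intensities of 55.7 to 64.8 in WT and 43.9 to 63.5 in Apcmin. The B cell markers summed to 279.0 to 319.0 and 222.8 to 306.1, and the red cell markers to 2737 to 4553 and 2773 to 5054. The megakaryocyte markers summed to 561 to 805 and 427 to 622. The granulocyte and monocyte markers, some of which immature progenitors also express, summed to 14871 to 17658 and 15495 to 15676. The sums of each list overlapped between the genotypes, and their part in the members' differences was not tested. In sorted cells measured in bulk, fewer cells of a type and less RNA per cell cannot be told apart. Arrays were alike, with Pearson correlations of log2 values between 0.974 and 0.989 for all pairs, and WT replicate 1 had the lowest mean correlation with the others, 0.977 against 0.983 to 0.985 for the remaining 5. Its 3′ minus 5′ log2 signal on the 18S control was -0.64, where the other arrays had -1.19 to -1.80, while the beta-actin and Gapdh controls of that array lay within the range of the others. The same signal of the pyruvate carboxylase control separated the genotypes, at 0.96 to 1.08 in WT and 1.11 to 1.63 in Apcmin. The part of either control in the members' differences was not tested. Y-linked genes were high on WT replicate 3 and Apcmin replicate 2 only, which puts 1 such array in each genotype. The Apc transcript had a mean of 7.72 in the WT arrays (SD 0.09, n = 3) and of 7.80 in the Apcmin arrays (SD 0.09), and since Min changes a codon this level checks the labels poorly.

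In the damage checkpoint 4 of 5 genes were higher in Apcmin, with a median difference of 0.29 that was 0.06 without WT replicate 1. Atr, the kinase that answers stalled replication forks and resected ends, had log2 intensities of 7.53, 7.51 and 7.45 in WT and 7.92, 7.78 and 7.75 in Apcmin. Each Apcmin array lay above each WT array by at least 0.22, and the spread within a genotype was small. The means were 7.50 ± 0.04 (SD, n = 3) and 7.82 ± 0.09, a 1.25-fold difference with a log2 difference of 0.32, a standard error of 0.13 and a 95% confidence interval from 0.002 to 0.64 (limma, adjusted p = 0.954). With any 1 array left out the difference ran from 0.27 to 0.35. A further Atr probe set of at least 6 differed by 0.02 and a dim one by 0.73, so the brighter of the other Atr probe sets did not repeat the size.

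Chek2, the kinase that Atm activates after breaks, had values of 7.44, 7.25 and 7.45 in WT and 7.87, 7.70 and 7.59 in Apcmin. All 3 Apcmin arrays lay above the WT arrays. The means were 7.38 ± 0.11 and 7.72 ± 0.14, a 1.27-fold difference (log2 difference 0.34, SE 0.15, limma, adjusted p = 0.954), and the range with each array left out was 0.26 to 0.41. Chek2 had only 1 probe set.

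The differences of the brightest Chek1 and Topbp1 probe sets rested on WT replicate 1. Chek1, the effector kinase of Atr, was at 8.03, 8.71 and 8.88 in WT and 8.85, 8.95 and 8.68 in Apcmin. Topbp1, the adaptor that activates Atr, was at 9.04, 9.54 and 9.81 in WT and 9.74, 9.83 and 9.63 in Apcmin. In both genes WT replicate 1 was the lowest of the 6 arrays and WT replicate 3 lay within the Apcmin values. WT replicate 2 lay within the Apcmin values for Chek1 and below all of them for Topbp1. The log2 differences of 0.29 and 0.27 became 0.03 and 0.06 without WT replicate 1. All 4 other Chek1 probe sets also had a higher mean in Apcmin, by 0.05 to 0.97. The 0.97 came from a dim probe set (mean 5.37) that separated the genotypes. That probe set had 4.005, 5.064 and 5.585 in WT and 5.656, 6.088 and 5.833 in Apcmin. Atm, the kinase that answers double-strand breaks, had 9.36, 9.36 and 9.24 in WT and 9.24, 9.27 and 9.33 in Apcmin, which made a difference of -0.04 with an interval from -0.35 to 0.27. Its groups overlapped, and its other probe set of at least 6 went the other way (0.24).

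**Figure D2:**
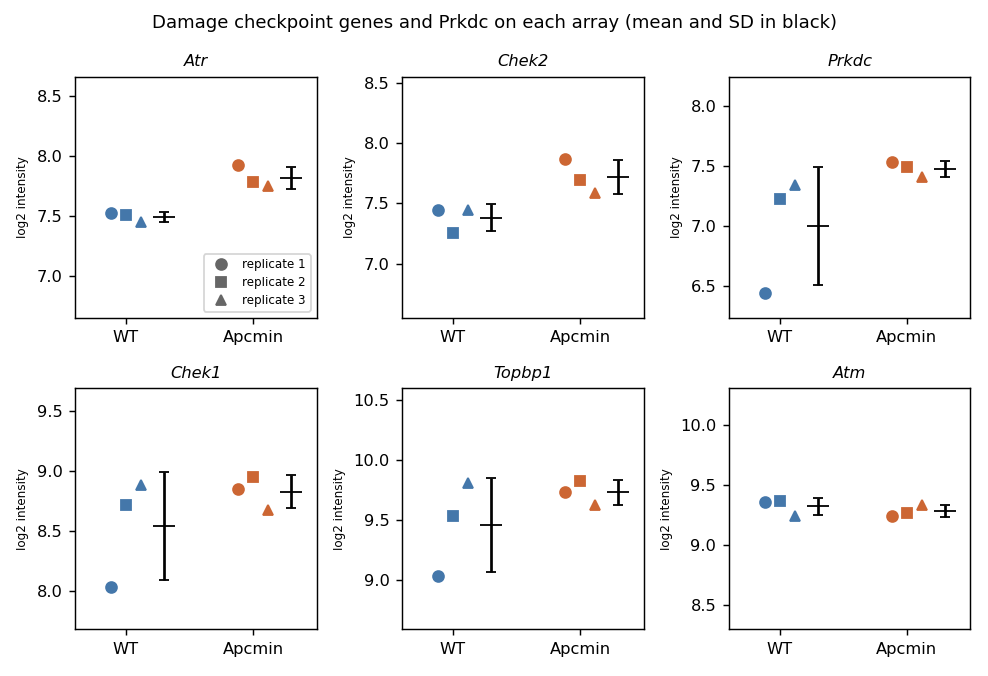
Log2 intensity of the 5 checkpoint members and Prkdc on each array, with the mean and SD of each genotype (n = 3) in black and a vertical span of 2 log2 units in each panel. Atr separates the genotypes by values that lie close together within each. Chek2 also separates them, by a gap of 0.145 that is smaller than its WT range of 0.193. In Prkdc, Chek1 and Topbp1 the circle of WT replicate 1 lies below all other arrays.

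The stretches of 250 bases before the RefSeq transcription start (GRCm38.p6) of the 4 checkpoint members that were higher in Apcmin are shown because Atr and Chek2 were separated and Chek1 and Topbp1 act with Atr, with matches to an E2F motif in capitals. E2F factors drive genes of the G1 to S transition. The motif was searched on both strands as TTTCCCG, or as TTTCGCG, or as TTTGCCG, or as TTTGGCG.
Atr, chr9:95857347-95857596, plus strand: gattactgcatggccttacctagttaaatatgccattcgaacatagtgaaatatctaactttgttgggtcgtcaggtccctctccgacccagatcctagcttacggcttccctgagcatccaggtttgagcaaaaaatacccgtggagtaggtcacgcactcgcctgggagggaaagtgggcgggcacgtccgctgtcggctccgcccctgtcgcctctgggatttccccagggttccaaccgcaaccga
Chek2, chr5:110839733-110839982, plus strand: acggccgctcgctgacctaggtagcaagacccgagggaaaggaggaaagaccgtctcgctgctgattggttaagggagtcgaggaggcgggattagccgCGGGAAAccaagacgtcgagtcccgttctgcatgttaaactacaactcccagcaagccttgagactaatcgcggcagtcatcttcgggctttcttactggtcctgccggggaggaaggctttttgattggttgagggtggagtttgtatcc
Chek1, chr9:36726659-36726908, minus strand: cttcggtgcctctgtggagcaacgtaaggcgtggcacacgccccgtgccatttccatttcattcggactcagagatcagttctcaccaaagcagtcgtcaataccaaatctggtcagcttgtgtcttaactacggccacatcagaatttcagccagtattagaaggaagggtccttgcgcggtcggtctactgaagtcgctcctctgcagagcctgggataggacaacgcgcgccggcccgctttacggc
Topbp1, chr9:103305077-103305326, plus strand: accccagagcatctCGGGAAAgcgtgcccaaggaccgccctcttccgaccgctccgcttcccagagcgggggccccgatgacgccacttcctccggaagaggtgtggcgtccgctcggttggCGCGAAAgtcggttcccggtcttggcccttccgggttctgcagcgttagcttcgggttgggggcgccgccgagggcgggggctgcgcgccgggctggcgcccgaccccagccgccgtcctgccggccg

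The Chek2 stretch held 1 match and the Topbp1 stretch 2, and the Atr and Chek1 stretches held none of these letters. Among the 29 members with such a window 7 held the motif (24.1%), namely Bard1, Brca2, Brip1, Chek2, Fancg, Topbp1 and Xrcc6, where 8.74% of 14452 measured genes and 11.5% of those with a mean of at least 6 did. The share was 26.7% in the genes of S phase replication. The CCAAT box, searched as CCAAT on both strands, was in 48.3% of the members and 39.4% of measured genes, and the cell cycle element CHR, searched as TTTGAA on both strands, in 3.45% and 14.1%. A match is a string of letters and not a bound site.

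End joining genes included the largest differences among the members. Prkdc, the catalytic subunit of the kinase that Ku recruits to broken ends, had 6.44, 7.23 and 7.34 in WT and 7.53, 7.49 and 7.41 in Apcmin. The genotypes did not overlap, but WT replicate 1 lay 0.79 below the next array, and the nearest WT and Apcmin values lay 0.07 apart. The means were 7.00 ± 0.49 and 7.48 ± 0.06, a 1.39-fold difference (log2 difference 0.47, SE 0.25, limma, adjusted p = 0.954), and without WT replicate 1 the log2 difference was 0.19.

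Lig4, the ligase of end joining, had the largest difference of any member and the least certain. Its values were 1.71, 4.62 and 5.58 in WT and 6.23, 4.76 and 5.04 in Apcmin, and the WT values spread over 3.87 log2 units. The difference of 1.37 had an interval from -0.92 to 3.67 and was 0.24 without WT replicate 1. At such intensities the table holds no detection call. Xrcc5, the Ku80 subunit, had 8.002, 7.645 and 7.435 in WT and 7.872, 8.192 and 7.842 in Apcmin. WT replicate 1 was the highest WT array here, so the difference of 0.28 became 0.43 without it, where the groups separated. Xrcc6, the Ku70 subunit that pairs with it, was at 8.71 ± 0.17 in WT and 8.70 ± 0.14 in Apcmin, with an interval from -0.38 to 0.37.

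Genes of the Fanconi core complex were higher in 5 of 7 cases, with a median difference of 0.20 that was 0.03 without WT replicate 1 and 0.02 without Apcmin replicate 2. Fanca, the member most often mutated in patients, had 7.38, 6.87 and 6.72 in WT and 7.08, 6.59 and 6.90 in Apcmin, a difference of -0.13 that turned to 0.06 without WT replicate 1. Fancg, which binds Fanca within the complex, had 9.08, 9.55 and 9.72 in WT and 9.73, 9.58 and 9.67 in Apcmin. The Apcmin values of Fancg lay close together, and only WT replicate 1 was away from them: the difference of 0.21 became 0.02 without it. Fancf, an adaptor of the complex, had 5.25, 4.83 and 5.62 in WT and 5.58, 5.36 and 5.78 in Apcmin. Its difference of 0.34 ranged from 0.14 without WT replicate 2 to 0.54 without WT replicate 3, and its groups overlapped. Fancm, the translocase that anchors the complex on DNA, had 4.96, 5.44 and 5.58 in WT and 5.39, 5.75 and 5.53 in Apcmin, a difference of 0.23 that became 0.05. Fancc differed by 0.20, Fancl, the ubiquitin ligase, by 0.03 and Fance, which joins the complex to Fancd2, by -0.16, none beyond the larger of their SDs.

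The pair that the core complex modifies was higher in Apcmin in each gene. Fancd2 had 5.98, 5.78 and 6.11 in WT and 6.15, 5.87 and 6.32 in Apcmin, and Fanci had 8.18, 8.53 and 8.38 in WT and 8.45, 8.72 and 8.57 in Apcmin. The groups overlapped in both genes. The difference of Fancd2 was 0.16, with a range from 0.056 without Apcmin replicate 3 to 0.28 without Apcmin replicate 2. That of Fanci was 0.22, with a range from 0.12 to 0.30 over the arrays left out. The other Fanci probe set, which was dim, differed by -0.46.

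Genes of the BRCA proteins and their partners showed no common direction, with 2 of 5 higher and a median of -0.01. Brca1, a ubiquitin ligase that acts early in recombination, had 8.28, 8.20 and 8.38 in WT and 8.30, 8.30 and 8.24 in Apcmin, which made a difference of -0.01 with an interval from -0.32 to 0.31. Brca2, a mediator of strand exchange in recombination, had 8.45, 8.70 and 8.66 in WT and 8.35, 8.51 and 9.02 in Apcmin, where replicate 3 stood above the other arrays. Its interval ran from -0.47 to 0.52. Brip1, the helicase that binds Brca1, had 5.56, 5.87 and 6.32 in WT and 6.06, 6.10 and 6.32 in Apcmin, a difference of 0.24 and of 0.06 without WT replicate 1. Bard1, the partner of Brca1 in its ligase, had 5.18, 4.43 and 5.14 in WT and 4.54, 4.59 and 5.29 in Apcmin, and Palb2, which links Brca1 with Brca2, differed by -0.10. The values of Bard1 fell into a high and a low level within each genotype.

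Among recombination factors, 3 of 5 were higher. Rad54l, a motor protein that helps strand invasion, had 7.33, 7.44 and 7.47 in WT and 7.59, 7.85 and 7.45 in Apcmin. Its 3 other probe sets also had higher means, and its groups overlapped through Apcmin replicate 3. The difference was 0.21 with an interval from -0.16 to 0.59, and leaving out each array gave 0.10 to 0.30. Rad51c, which acts in homologous recombination, had 5.77, 4.85 and 5.29 in WT and 5.29, 4.82 and 5.21 in Apcmin, where WT replicate 1 was the highest array. Rad52, an annealing factor, had means of 8.80 in each genotype, although its other probe set, at 6.09 ± 0.57 in WT and 6.74 ± 0.28 in Apcmin, was separated with a difference of 0.65. Blm, the helicase that dissolves joined chromatids, differed by 0.14 and Xrcc3, which acts with Rad51c, by -0.15.

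Of the members that act on break ends all 3 measured had a lower mean in Apcmin, by small amounts on their brightest probe sets. Nbn, which recruits Atm as part of the Mre11 complex, had 8.36, 8.25 and 8.21 in WT and 8.13, 8.02 and 8.32 in Apcmin. Rad50, the tethering subunit of that complex, had 8.12, 8.42 and 8.14 in WT and 8.22, 7.73 and 8.46 in Apcmin. In both genes the values overlapped and Apcmin replicate 2 was the lowest array. The differences were -0.12 and -0.09, and that of Exo1, a nuclease that resects ends, was -0.07, or 0.06 without WT replicate 1. The other Exo1 probe sets were dim, had overlapping groups and differed by 0.04 and -0.79. Among the structure-specific nucleases, Eme1 had 7.09, 7.48 and 7.10 in WT and 7.31, 7.58 and 7.35 in Apcmin, and Slx4, the scaffold of several nucleases, had 5.75, 5.88 and 5.97 in WT and 5.57, 6.39 and 6.01 in Apcmin. Neither separated the genotypes. Mus81, with which Eme1 forms an enzyme, differed by -0.03.

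**Figure D3:**
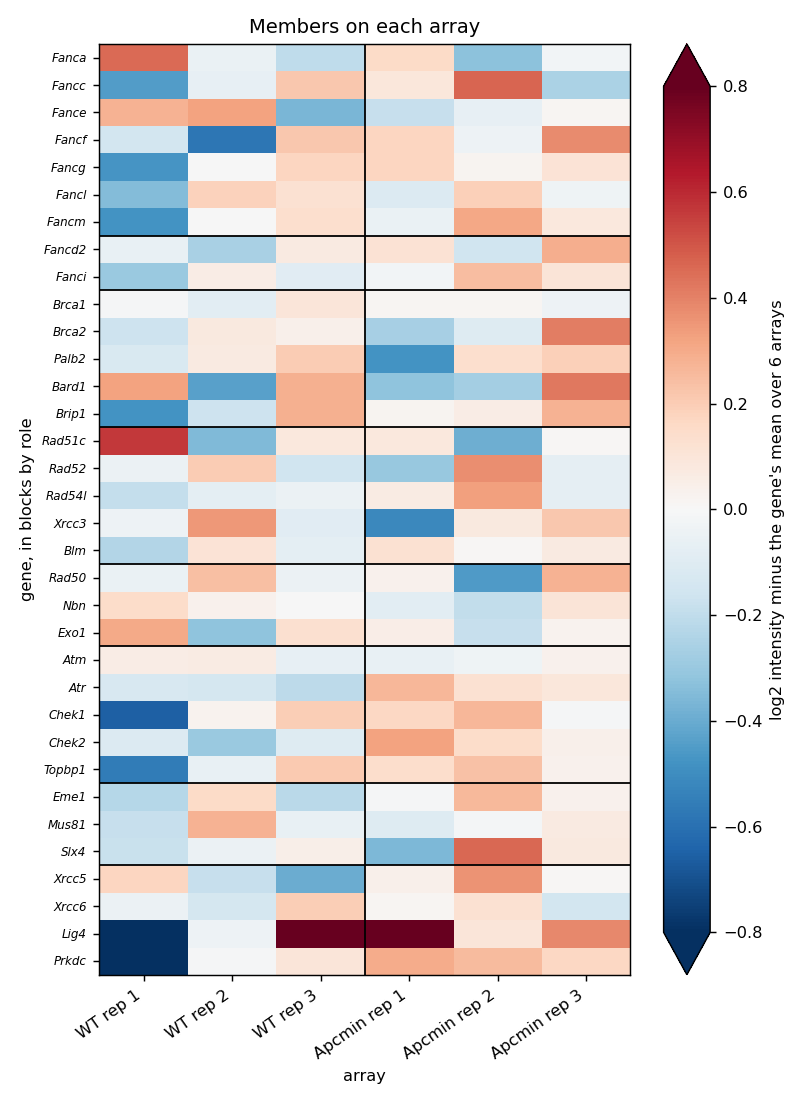
Log2 intensity of each member on each array minus the mean of that gene over the 6 arrays, in blocks by role, with the colour scale cut at 0.8 in either direction. The column of WT replicate 1 holds the lowest value of 14 members, most visibly in Chek1, Topbp1, Prkdc and Lig4, and the values of Fanca and Rad51c on that array are the highest of their rows.

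Members varied within the genotypes as much as between them. WT replicate 1 was the lowest of the 6 arrays for 14 of 34 members (41.2%), compared with 28.0% of genes with a mean of at least 6 and 37.5% of S phase replication genes, while Apcmin replicate 3 was the lowest for 1 member. The median deviation of the members from their 6-array means was -0.14, -0.03 and 0.06 on the WT arrays and 0.03, 0.09 and 0.07 on the Apcmin arrays, so WT replicate 3 lay among the Apcmin arrays. The SD was larger in WT for 22 of the 34 members, a share like that of all genes (64.1%). For 30 members the difference between genotypes was smaller than the larger of its SDs. The same share over all genes was not computed, so this count does not set the members apart.

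Other genes of the same pathways had a median near 0. Of 65 further Fanconi and break repair genes 61 were measured, 34 higher and 27 lower, with a median difference of 0.01, and 0 passed in limma (adjusted p = 0.954 or more for each). Genes of mismatch and excision repair had 16 of 28 higher and a median of 0.09, and genes of S phase replication had 28 of 40 higher and a median of 0.07. Genes of mitosis had 19 of 25 higher (76.0%, beside 61.8% of the members) and a median of 0.07. Without WT replicate 1 these 4 medians were 0.02, 0.04, 0.03 and 0.06, beside 0.04 for the members. The members and lists were chosen with earlier results of these data known, and the differences between these lists were not tested. On WT replicate 1 the S phase genes had a median deviation of -0.10, and the further repair genes one of 0.03.

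Among the further repair genes, Ercc4, the nuclease subunit that unhooks crosslinks, had 5.80, 6.06 and 5.92 in WT and 6.68, 6.36 and 6.23 in Apcmin. All Apcmin arrays lay above the WT arrays, with a difference of 0.50 and an interval from 0.09 to 0.91 (limma, adjusted p = 0.954). Wrn, a helicase of the same family as Blm, had 8.65, 9.08 and 9.12 in WT and 9.43, 9.15 and 9.24 in Apcmin, also separated, with a difference of 0.33. Of the 61 further genes these 2 were separated higher and 1 was separated lower. Among all genes 2.97% were separated higher and 7.73% in either direction. Rad1, of the clamp that helps Topbp1 activate Atr, differed by 0.27 with overlapping groups. The 3 lower genes with the smallest p were Fancb, a core complex subunit (-0.55), Polq, the polymerase of alternative end joining (-0.33, at a dim level), and Atrip, the partner of Atr (-0.24). Fancb spread over 1.20 log2 units in WT, from 6.16 to 7.37. Mki67, a marker of cycling cells, differed by 0.05 and Pcna, the replication clamp, by -0.07.

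**Figure D4:**
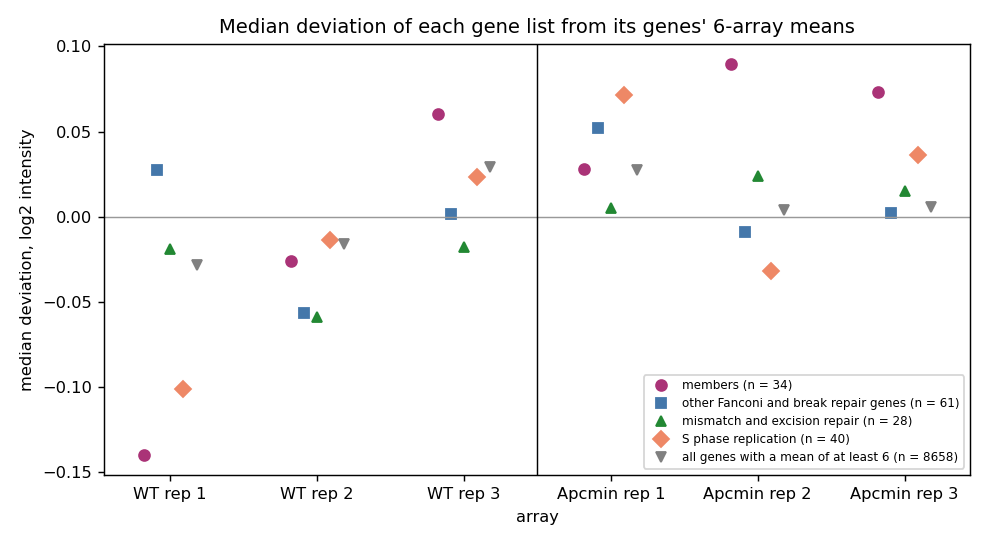
Median deviation of the members and of comparison lists from the 6-array mean of each gene, by array, in log2 intensity. Members and S phase genes are lowest on WT replicate 1, at -0.14 and -0.10, while the further Fanconi and break repair genes are at 0.03 there.

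The precision of 3 arrays against 3 sets what could be seen. The half-width of the 95% confidence interval was between 0.31 and 2.29 log2 units over the members, with a median of 0.49, and the interval lay within a 2-fold change in either direction for 32 of 34 members, the exceptions being Lig4 and Prkdc. Differences of the size of the median member were below that resolution. Of the 36 other probe sets of the members, 24 had the sign of the brightest one, as did 8 of the 9 with a mean of at least 6. These probe sets share the same arrays, so their signs are not independent. A sign also says little where the brightest difference is near 0, as in Rad52 (0.0002).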

How the data were processed

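RNA of sorted LKS+ cells was amplified linearly and hybridized to 6 Affymetrix arrays, 3 per genotype. The deposited values are intensity values that the authors normalized, linear and from 1.31 to 11375. The submitters' processing notes name RMA without a version. Log2 was taken without a pseudocount. After 64 control probe sets were left out, 45037 were tested with limma 3.58.1 in R 4.3.3 (lmFit, eBayes; only genotype in the model) at an adjusted p of 0.05. Differences are Apcmin minus WT. A single gene symbol belonged to 34945 probe sets, of which 34741 matched a RefSeq table of GRCm38.p6 by Entrez identifier. Trp53 and a further gene that was to be reported are not reported here. Values of every array were given for separated members and the 2 largest differences of each role. They were also given for the 3 brightest and 3 dimmest members and a fixed set of members. The 3 further repair genes per direction with the smallest p were named, with every array given for Ercc4 and Wrn. The members and lists were chosen with earlier results of these data known. Promoter windows came from RefSeq and the limma step was tested on simulated data. P-values measure the spread between these arrays, and no label names the animals. Alternatives were a pseudocount of 16, a floor at 4, filters at the median and at 6, quantile normalization, the mean of all probe sets, a mean-variance trend, array weights, a replicate block, a Y-linked covariate and leaving out each array.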

Additional observations from a re-analysis of the deposited data

How the results depend on the processing

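No setting gave a call: 0 probe sets and 0 members passed under each of the 16 alternatives, with 0.376 as the lowest adjusted p of a member, against 1714 probe sets at an unadjusted p under 0.05 with all arrays, 1398 with the replicate block, 911 with the floor, 2717 with array weights and 5864 without WT replicate 3. The replicate numbers are not stated to pair mice, and same-numbered arrays deviated with correlations of 0.05, -0.05 and -0.25, so the block was read only here: the median over the members was 0.13 with it and 21 members were higher. The median over the members ranged from 0.04 without WT replicate 1 to 0.16 without Apcmin replicate 1, and was 0.08 after a further quantile normalization. Members higher in Apcmin ranged from 20 to 25. Leaving out an array gave 4 to 11 members whose groups did not overlap (11.8% to 32.4%), beside 13.7% to 32.7% of all genes. This count was tried after the data were seen. It was 8 without WT replicate 2 (23.5%, beside 15.0% of all genes), 11 without WT replicate 3 and 5 each without Apcmin replicates 1 and 3. The sign held for 17 members under every alternative that kept them and turned for the other 17. Among those that held, Atr, Chek1, Chek2, Topbp1, Prkdc, Xrcc5, Lig4, Fancd2, Fancg, Fancf and Brip1 were higher in Apcmin. Fance (-0.16) and Nbn (-0.12) held a lower mean. The cause was not tested.

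With the mean of all probe sets the difference was 0.098 for Atm, -0.10 for Fancc, -0.12 for Fanci, 0.0015 for Mus81 and 0.019 for Rad51c. With array weights it was 0.058 for Bard1, 0.018 for Brca1, 0.037 for Exo1, -0.023 for Fancl, -0.068 for Rad52 and 0.033 for Xrcc6. Quantile normalization gave -0.016 for Rad52 and the Y-linked covariate 0.0042 for Xrcc6. With each array left out, the difference of Bard1 ran from -0.36 to 0.020, of Brca1 from -0.048 to 0.042, of Brca2 from -0.17 to 0.17, of Exo1 from -0.25 to 0.064, of Fanca from -0.27 to 0.063, of Fancl from -0.13 to 0.13, of Mus81 from -0.12 to 0.11, of Palb2 from -0.22 to 0.11, of Rad50 from -0.25 to 0.11, of Rad51c from -0.43 to 0.034, of Rad52 from -0.19 to 0.15, of Slx4 from -0.081 to 0.33, of Xrcc3 from -0.29 to 0.076 and of Xrcc6 from -0.077 to 0.091. Dim probe sets, with no detection call, limit what can be said of Lig4, Bard1, Rad51c, Fancf, Fancm, Fance and Slx4.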
